A study of Gallus gallus with 24 samples.

Results

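Gene expression in the jejunum, a stretch of small intestine between duodenum and ileum, was compared between chickens of 2 selected lines after both had been given the same antigen. Birds of the HAS line injected with sheep red blood cells (SRBC) formed the group HASI, and birds of the LAS line injected with SRBC formed the group LASI, with 6 birds and 1 library a bird on each side. These 12 libraries were taken from the 24 of the series. The rest are uninjected birds, 6 of the HAS line (HASN) and 6 of the LAS line (LASN), and are used here only to estimate each gene's spread and to set the line difference beside that of birds without the antigen. Selection was on antibody titre after SRBC, upward in HAS and downward in LAS, and every sample carries the label of 5 days post injection. Each direction of selection is represented by 1 line, so a difference fixed by selection and one fixed by chance within a line cannot be told apart. The labels give no age, sex, batch or pooling of birds.

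SRBC are a harmless particulate antigen, and the antibody titre that birds raise against them has long been used to select poultry for humoral immunity. Antibody responses depend on helper T cells that recognise antigen on class II molecules of the major histocompatibility complex (MHC), which in the chicken is a compact set of genes on chromosome 16. It holds the class II beta chain genes BLB1 and BLB2 and the class I genes BF1 and BF2, of which BF2 is generally the more strongly expressed, and next to them a family of butyrophilin-like BG genes. The jejunum is an absorptive tissue whose epithelium also holds mucus-secreting goblet cells and hormone-secreting enteroendocrine cells, above a lamina propria rich in lymphocytes and plasma cells.

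Values were taken to be TPM (a transcript's share of all transcripts in its library, on a fixed scale), as judged from near-equal column sums. They are thus relative levels per length within a library, and the depth of the libraries is unknown. The libraries carried the markers of small intestinal epithelium. The epithelial adhesion gene EPCAM lay between 1663 and 2458 TPM in HASI and between 1706 and 2577 TPM in LASI, and the fatty acid binding protein gene FABP2 between 3883 and 8316 TPM against 4564 to 11107 TPM. The acinar pancreas gene CPA1 reached at most 0.164 TPM in HASI and 0.0843 in LASI, and the liver gene ALB at most 1.11 and 1.14. FGB, another gene of the liver list, was higher, at 2.84 to 10.7 TPM in HASI and 2.98 to 9.53 TPM in LASI. The share of TPM from the 13 genes of the mitochondrial genome was 27.8% ± 6.86 in HASI birds and 22.1% ± 4.05 in LASI birds (mean ± SD, n = 6 each; exact two-sided permutation test, p = 0.134, adjusted over 4 library measures 0.537). LASI birds 4 and 6 stood apart, with a mean correlation to the other injected libraries of 0.936 and 0.94, against 0.954 to 0.972 for the other 10. LASI bird 4 also had the highest haemoglobin level (HBA1 at 452 TPM, against at most 125 TPM in HASI), and losses of a call without these birds are given beside each gene. Genes on chromosome W, which hens carry, were high in 4 HASI and 3 LASI birds and low in 2 and 3, so both groups held both kinds of bird.

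Of 13279 genes tested, 72 differed between HASI and LASI at an adjusted p below 0.05 (0.542%; limma, Benjamini-Hochberg adjustment over all genes tested), 21 higher (0.158%) and 51 lower in HASI (0.384%). Such genes are referred to as called. These shares are the background for the counts of called genes given below for lists and chromosomes. A symbol was given for 46 of them, 13 higher and 33 lower, and 26 were listed by identifier only. In 42 the difference was at least 1 on the log2 scale, 10 higher and 32 lower. In 56 of the 72 no HASI bird overlapped any LASI bird, a pattern seen in 181 of all genes tested (1.36%), of which 31 were higher (0.233%) and 150 lower (1.13%). The 72 were called from the same birds, so their separation adds no support to the calls. Over all tested genes the median log2 fold change was -0.06, and at an unadjusted p below 0.05 there were 993 genes (7.48%). Calls numbered 40 (9 higher, 31 lower) without LASI birds 4 and 6. They numbered 47 without HASI bird 1, 46 without HASI bird 3 and 45 without LASI bird 2. Rescaling each library by its median ratio gave 80, with 32 higher and 48 lower, and only 49 of the 72 were among them. With only injected birds fitted there were 68 calls, and 51 of the 72 were among them. With each library's slope of expression on gene span as covariate there were 288 calls, 64 higher and 224 lower. A gene described below as called kept its call and its direction under each of the 21 alternatives run, unless a loss is given with it.

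**Figure D1:**
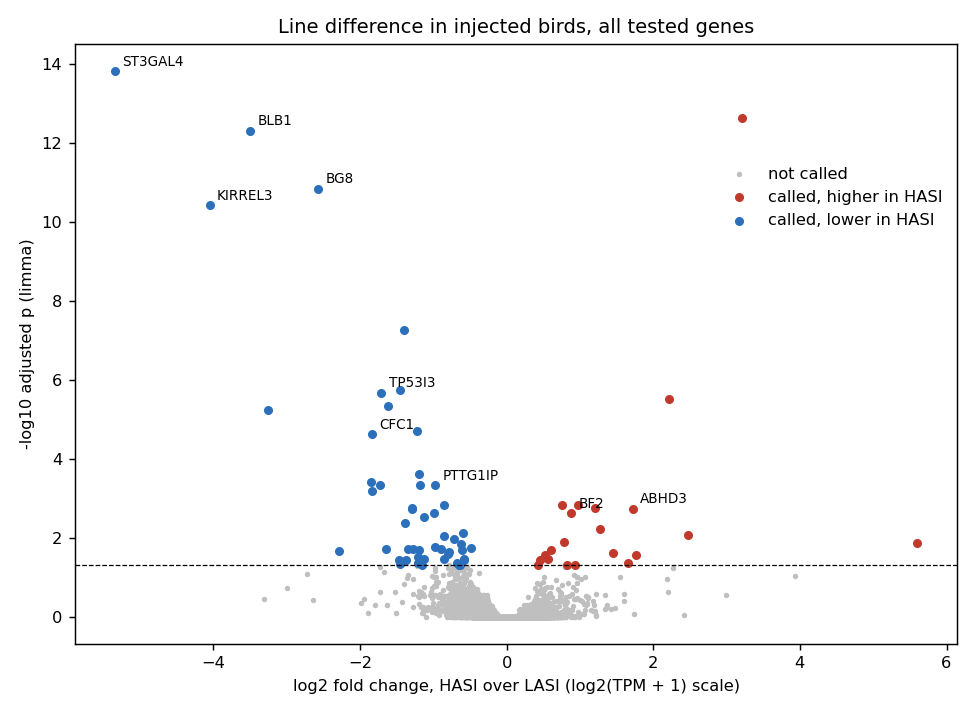
Log2 fold change (HASI over LASI, on the log2(TPM + 1) scale, x axis) against -log10 adjusted p (y axis) for the 13279 genes tested. The dashed line is the threshold of 0.05; 21 called genes lie to the right in red and 51 to the left in blue, with ST3GAL4, BLB1, BG8 and KIRREL3 highest on the left.

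Chromosome 16, which carries the MHC, held 13 of the 72 called genes. They were 15.5% of the 84 genes tested on that chromosome, against 0.542% of all tested genes. Of the 13, 2 were higher and 11 lower in HASI, all within a stretch from 1714898 to 2609057 of the galGal6 build. The class II beta chain gene BLB1, whose product presents peptides to helper T cells, lay between 117 and 242 TPM in HASI birds (median 151), against 1514 to 2506 TPM in LASI birds (median 1762). The lowest LASI bird was above the highest HASI bird (log2 fold change -3.50, SE 0.16, adjusted p = 4.85e-13). Its neighbour BLB2, which encodes the other class II beta chain, lay between 3073 and 4636 TPM in HASI birds (median 4171), against 2951 to 5627 TPM in LASI birds (median 3706), with full overlap of the groups (log2 fold change 0.03, adjusted p = 1.0). BLB1 thus made up 2.79 to 4.99% of the summed TPM of the pair in HASI birds and 25.7 to 33.9% in LASI birds. The sum of the pair was 3208 to 4845 TPM in HASI and 4466 to 7814 TPM in LASI, with overlap.

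The class I genes moved in opposite directions. BF1 (ENSGALG00000033932, chromosome 16, 2565405 to 2595262) lay between 841 and 1277 TPM in HASI birds (median 966), against 2186 to 3118 TPM in LASI birds (median 2783), and was lower in every HASI bird (log2 fold change -1.45, SE 0.15, adjusted p = 1.82e-06). BF2 (ENSGALG00000041380, chromosome 16, 2606528 to 2609057), which also encodes a class I heavy chain, lay between 7029.9 and 10921 TPM in HASI birds (median 8359), against 3907 to 5329.9 TPM in LASI birds (median 4609), and was higher in every HASI bird (log2 fold change 0.88, SE 0.15, adjusted p = 0.00244). BF1 supplied 9.7 to 11.4% of their summed TPM in HASI and 31.7 to 41.6% in LASI. Their sum was 7871 to 12198 TPM in HASI birds and 6093 to 7799 TPM in LASI birds, narrowly without overlap. In uninjected birds this sum was 7611 to 14080 TPM in HASN and 7020 to 8464 TPM in LASN, with overlap. The other 7 tested genes of class I and peptide loading were not called, among them B2M, the class I light chain, with a log2 fold change of -0.04 (unadjusted p = 0.748), and TAPBP, which helps to load peptides, with -0.20 (unadjusted p = 0.389). After rescaling, BF2 was no longer called (adjusted p = 0.146, the highest of its 21 alternatives, of which the lowest was 1.12e-05). Reads of near-identical copies, such as BF1 with BF2 and BLB1 with BLB2, may have been split or lost in counting, and the annotated BF1 overlaps 8 other gene models, BLB1 and BLB2 among them, so the levels of single copies are uncertain.

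Among the other MHC genes, BG8 (ENSGALG00000049461, chromosome 16, 2283023 to 2395890), of the butyrophilin-like BG family, lay between 62 and 92.4 TPM in HASI birds (median 79), against 415 to 513 TPM in LASI birds (median 451), without overlap (log2 fold change -2.57, SE 0.14, adjusted p = 1.45e-11). BLEC2, which encodes a C-type lectin-like receptor, was at 0.118, 0.434 and 0.655 TPM in HASI against 1.53, 2.1 and 5.29 TPM in LASI (lowest, median and highest bird; log2 fold change -1.29, SE 0.21, adjusted p = 0.00183). DMB1, the beta chain of the DM molecule that exchanges peptides on class II, lay between 81.3 and 119 TPM in HASI birds (median 102), against 127 to 172 TPM in LASI birds (median 152) (log2 fold change -0.62, SE 0.12, adjusted p = 0.0145). DMB1 lost its call without HASI bird 3 (adjusted p = 0.0511), and after rescaling and without LASI birds 4 and 6 together, with adjusted p-values of 0.00131 to 0.46 over 21 alternatives. BG8 and BLEC2 were the called members of 11 tested BG and lectin genes, 0 higher and 2 lower, where 0.384% of all tested genes were lower. Of the 9 class II genes 0 were higher and 2, BLB1 and DMB1, were lower, against the same 0.384%. The class II genes DMB2, IFI30, CTSS and RFXANK, 4 more, had negative values at an unadjusted p below 0.05. The share of such genes lower in HASI was 6.10% over all genes. The BG8 model overlaps 8 others. Summed over the 11 models of that stretch, tested or not, levels were 666 to 997 TPM in HASI and 979 to 1260.1 TPM in LASI. This was a narrower gap than that of BG8 alone, with the ranges overlapping. The sum includes ENSGALG00000046794, which has no symbol and was higher in HASI (log2 fold change 2.21, SE 0.23, adjusted p = 3.15e-06). Its result under the alternatives is not reported here. In the same stretch ENSGALG00000049448, which has no symbol, was at 1.3, 3.11 and 6.92 TPM in HASI against 22, 36.7 and 78.2 TPM in LASI (lowest, median and highest; log2 fold change -3.25, SE 0.36, adjusted p = 5.97e-06).

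**Figure D2:**
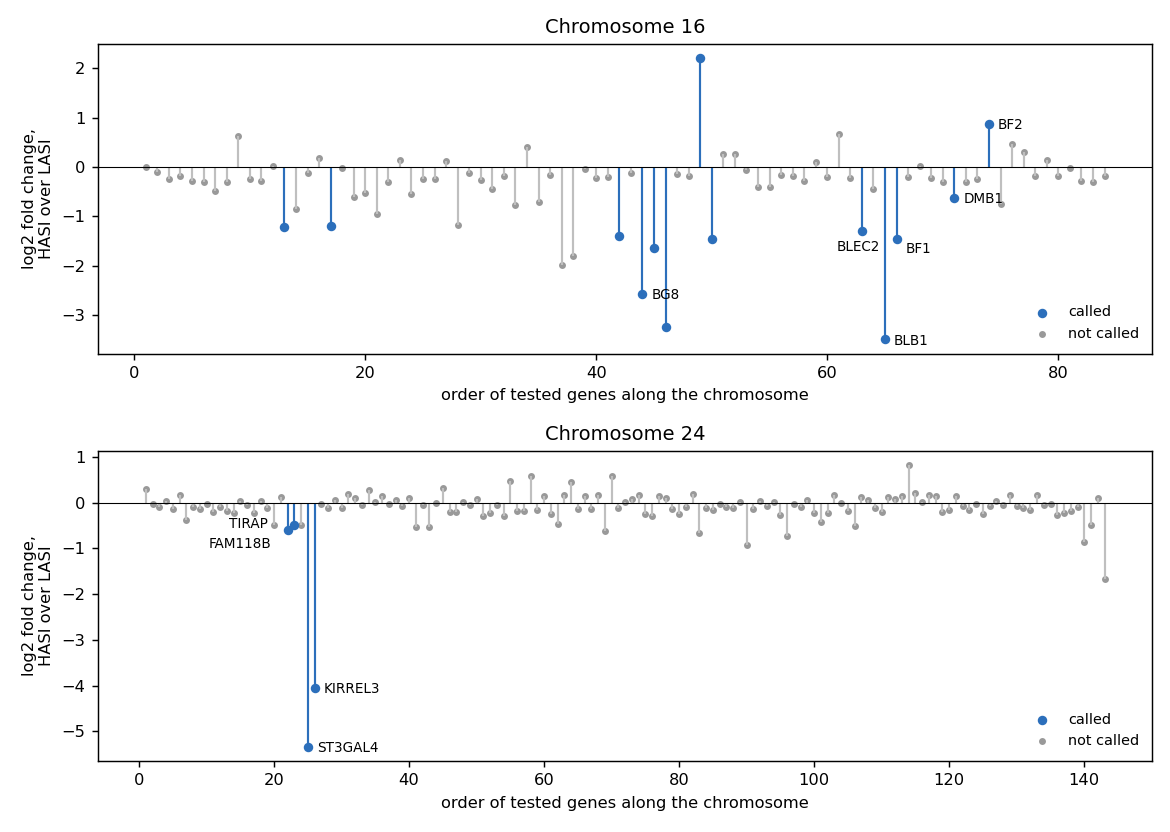
Log2 fold change (HASI over LASI, y axis) of each tested gene in its order along chromosome 16 (84 genes, upper panel) and chromosome 24 (143 genes, lower panel), with called genes in blue. The 13 called genes of chromosome 16 are spread over many positions with uncalled genes between them, whereas the 4 of chromosome 24 are close neighbours.

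On chromosome 24, 4 of 143 genes tested were called (2.80%, against 0.542% of all tested genes). They lay together between 437306 and 720481 with 1 uncalled gene among them. ST3GAL4, which adds alpha-2,3-linked sialic acid to galactose at the ends of glycans, was at 3.27, 3.46 and 3.93 TPM in HASI against 86.4, 193 and 285 TPM in LASI (lowest, median and highest bird of each group). The HASI birds lay within a narrow band and the LASI birds were spread more widely above it (log2 fold change -5.34, SE 0.20, adjusted p = 1.52e-14). KIRREL3, an immunoglobulin superfamily adhesion gene whose 3′ end lies next to it, was at 0.18, 0.251 and 0.437 TPM in HASI against 8.44, 19.1 and 39.08 TPM in LASI (log2 fold change -4.05, adjusted p = 3.79e-11). Further out, TIRAP, which encodes an adaptor of Toll-like receptors, lay between 21.7 and 25.3 TPM in HASI birds (median 24.2), against 27 to 37 TPM in LASI birds (median 34.7) (log2 fold change -0.48, SE 0.10, adjusted p = 0.0185). FAM118B, whose annotation overlaps that of TIRAP, lay between 15 and 18.4 TPM in HASI birds (median 16.9), against 17.5 to 31.3 TPM in LASI birds (median 27.8) (log2 fold change -0.61, adjusted p = 0.0212), with LASI bird 4 inside the HASI range. DCPS, a decapping enzyme gene between TIRAP and ST3GAL4, was not called (25, 28.7 and 34.4 TPM in HASI against 33.5, 38.6 and 57.5 TPM in LASI, adjusted p = 0.0674, but 0.0123 with the span slope and 0.0455 without LASI bird 1), and the next genes on the other side, ETS1 and FLI1, both transcription factors of the ETS family, had log2 fold changes of -0.04 and -0.11. TIRAP lost its call without HASI bird 3 or LASI bird 2 or 5 (adjusted p up to 0.0574), and after rescaling and with only injected birds fitted, with adjusted p-values of 0.00144 to 0.594 over 21 alternatives. FAM118B lost its call without HASI bird 1 or 3 or LASI bird 2, 3, 5 or 6 (adjusted p up to 0.067), and after rescaling and with only injected birds fitted, with adjusted p-values of 0.00106 to 0.325 over 21 alternatives.

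Of 16 tested sialyltransferase genes, ST3GAL4 was the 1 that was called (0 higher, 1 lower; list median -0.25, against -0.06 over all genes tested). ST6GAL1, which makes alpha-2,6-linked sialic acid, had a log2 fold change of -0.34 (unadjusted p = 0.0276), and ST6GALNAC2 of -0.32 (unadjusted p = 0.0269). None of 15 tested genes of N-glycan branching and fucosylation was called (0 at an adjusted p below 0.05, 1 at an unadjusted p below 0.05). The largest value there was that of MGAT5B, a branching N-acetylglucosaminyltransferase, at 0.20, 0.981 and 1.75 TPM in HASI against 2.02, 5.57 and 13.5 TPM in LASI (log2 fold change -1.73, SE 0.41, adjusted p = 0.0565). MGAT5B passed the threshold in 6 of 21 alternatives, which were rescaling, the block, the W level, the span slope, only injected birds and the fit without LASI bird 4 (adjusted p 4.77e-06 to 0.143 over the 21).

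Several genes outside the MHC and chromosome 24 separated all birds of the 2 lines and were called under each of the 21 alternatives. TP53I3, a quinone oxidoreductase gene, lay between 4.59 and 6.21 TPM in HASI birds (median 5.44), against 13.2 to 23.1 TPM in LASI birds (median 21) (log2 fold change -1.71, SE 0.18, adjusted p = 2.12e-06). ANKRD33, an ankyrin repeat gene, was nearly silent in HASI, at 0.0668, 0.0817 and 0.196 TPM in HASI against 1.08, 2.51 and 4.42 TPM in LASI (log2 fold change -1.62, adjusted p = 4.51e-06). It was the only tested gene below 0.2 TPM in all 6 birds of one group and at 1 TPM or more in all 6 of the other. CFC1, a co-receptor for the growth factor Nodal, was at 1.61, 2.54 and 3.59 TPM in HASI against 7.39, 12.7 and 16.8 TPM in LASI (log2 fold change -1.83, SE 0.22, adjusted p = 2.42e-05). CFC1 lies on chromosome Z. In HASI the 2 birds low in chromosome W genes were at 3.46 and 3.59 TPM, and the 4 high birds at 1.61 to 2.73 TPM. In LASI the 3 low birds were at 12.3 to 16.8 TPM and the 3 high birds at 7.39 to 13.2 TPM. The CFC1 call was kept with the W level as covariate. BPIFB3, of the BPI fold family, was at 2.12, 3.0 and 5.56 TPM in HASI against 8.3, 12.8 and 20.4 TPM in LASI (log2 fold change -1.73, adjusted p = 0.000453). PACSIN3, which acts in endocytosis, was at 1.09, 1.84 and 2.61 TPM in HASI against 4.08, 6.38 and 8.78 TPM in LASI (log2 fold change -1.30, adjusted p = 0.00173). All 5 were lower in HASI with no overlap between the groups.

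PTTG1IP, which encodes a protein that binds PTTG1, was at 34.8, 41.2 and 44.4 TPM in HASI against 55.9, 81.4 and 104 TPM in LASI (log2 fold change -0.97, adjusted p = 0.000477). EMID1, an extracellular matrix gene, was at 1.85, 2.57 and 3.73 TPM in HASI against 4.57, 5.52 and 7.1 TPM in LASI (log2 fold change -0.85, adjusted p = 0.00889). C1H21ORF33 was at 94.5, 117 and 127 TPM in HASI against 182, 203 and 225 TPM in LASI (log2 fold change -0.85, adjusted p = 0.00145). These 3 were lower in every HASI bird and were called under each alternative, although the C1H21ORF33 and EMID1 models overlap others. CEP57L1, a centrosomal protein gene, was at 0.555, 1.01 and 1.29 TPM in HASI against 2.3, 2.89 and 3.6 TPM in LASI (log2 fold change -0.98, adjusted p = 0.0171). RBFA, a factor of mitochondrial ribosome assembly, was at 17.9, 19.2 and 21.3 TPM in HASI against 22.5, 31.4 and 33.8 TPM in LASI (log2 fold change -0.60, adjusted p = 0.00782). FHL5, a LIM domain gene, was at 15.7, 21.9 and 26.3 TPM in HASI against 29.6, 38.9 and 45 TPM in LASI (log2 fold change -0.80, adjusted p = 0.0259). Here too no HASI bird reached the LASI range. FAM204A was at 20.2, 24.4 and 27.7 TPM in HASI against 33.2, 39.6 and 49.4 TPM in LASI (log2 fold change -0.68, adjusted p = 0.0433), likewise without overlap. CEP57L1 lost its call without HASI bird 1 or LASI bird 3 (adjusted p up to 0.0563) and without LASI birds 4 and 6 together, with adjusted p-values of 0.00222 to 0.106 over 21 alternatives. RBFA lost its call after rescaling and without LASI birds 4 and 6 together, with adjusted p-values of 0.000553 to 0.135 over 21 alternatives. FHL5 lost its call without HASI bird 1, 3 or 5 or LASI bird 2, 3 or 6 (adjusted p up to 0.0827) and without LASI birds 4 and 6 together, with adjusted p-values of 0.000128 to 0.0858 over 21 alternatives. FAM204A lost its call without any 1 of the 12 birds other than LASI 1 and LASI 6 (adjusted p up to 0.131), and with the replicate block, after rescaling and without LASI birds 4 and 6 together, with adjusted p-values of 0.00802 to 0.157 over 21 alternatives.

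**Figure D3:**
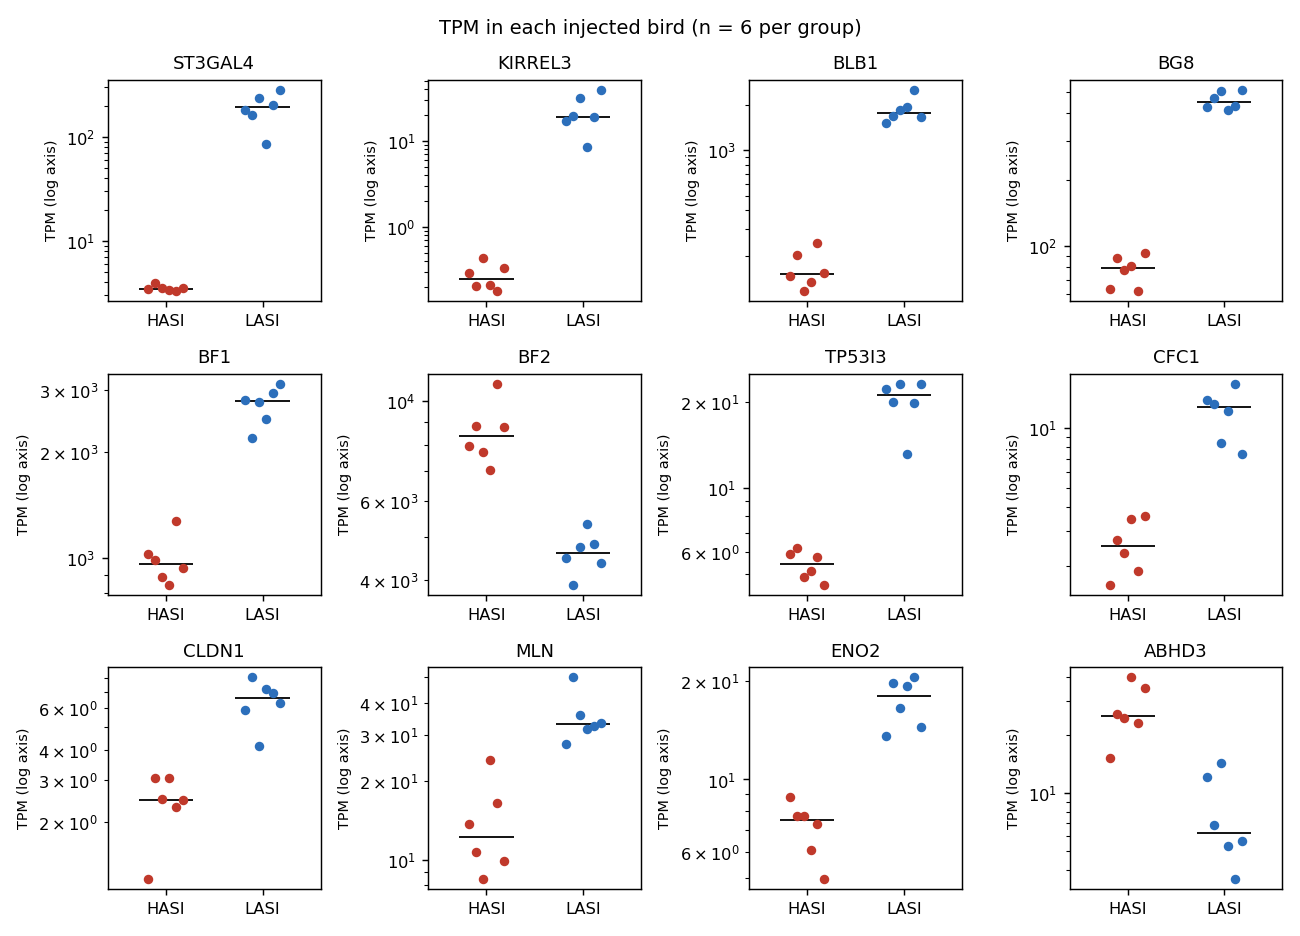
TPM in each injected bird (log y axis) for 12 called genes, with HASI birds left in red and LASI birds right in blue; each point is 1 bird and each line the median of 6. In each of the 12 genes the birds of the 2 groups do not overlap; BF2 and ABHD3 are higher in HASI and the other 10 lower.

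CLDN1 was the only called member of 14 tested tight junction genes (0 higher, 1 lower; list median -0.01). Claudins form the strands that seal the space between epithelial cells. CLDN1 lay between 1.15 and 3.07 TPM in HASI birds (median 2.48), against 4.18 to 8.08 TPM in LASI birds (median 6.63), without overlap (log2 fold change -1.13, SE 0.20, adjusted p = 0.00303). HASI bird 1 was the lowest at 1.15 TPM, and the other 5 HASI birds lay between 2.31 and 3.07 TPM. The call was kept without each bird, without LASI birds 4 and 6 and after rescaling (adjusted p at most 0.0335 over 21 alternatives). The more abundant claudin CLDN3 had a log2 fold change of 0.11 (unadjusted p = 0.649), occludin (OCLN) of 0.18 (unadjusted p = 0.287) and the scaffold gene TJP1 of 0.18 (unadjusted p = 0.783). The junctional adhesion molecules JAM3, at 6.71, 8.76 and 10.5 TPM in HASI against 9.77, 11.9 and 19.8 TPM in LASI, and JAM2, with a log2 fold change of -0.59 (unadjusted p = 0.039), were not called. The summed level of the list was 961 to 1284 TPM in HASI and 971 to 1252 TPM in LASI.

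The hormone genes MLN and NTS and the transcription factor gene PAX6 were the called members of the enteroendocrine list. Of its 31 tested genes 0 were higher and 3 were lower, where 0.384% of all tested genes were lower, with a median log2 fold change of -0.34 against -0.06 over all genes tested. The list held 1 lower call after rescaling, 5 with the span slope as covariate and 0 without LASI birds 4 and 6. MLN encodes motilin, a hormone that stimulates gut contraction between meals, and lay between 8.44 and 24.2 TPM in HASI birds (median 12.2), against 27.7 to 50.0 TPM in LASI birds (median 33), without overlap (log2 fold change -1.34, SE 0.27, adjusted p = 0.0191). NTS encodes neurotensin, which slows motility and promotes fat absorption in mammals, and lay between 55.9 and 138 TPM in HASI birds (median 84.6), against 132 to 191 TPM in LASI birds (median 155) (log2 fold change -0.89, SE 0.18, adjusted p = 0.0191); the highest HASI bird passed the lowest LASI bird. PAX6, a transcription factor of endocrine cells, was low throughout, at 1.03, 1.33 and 1.65 TPM in HASI against 1.68, 2.51 and 3.37 TPM in LASI (log2 fold change -0.63, SE 0.15, adjusted p = 0.0488). Log2 fold changes were negative in 23 members of the list and positive in 8, the highest being 0.89. At an unadjusted p below 0.05 there were 0 higher and 13 lower members, against 6.10% of all tested genes lower. These 13 also held the genes of secretin (SCT, -0.87), gastric inhibitory peptide (GIP, -1.19), peptide YY (PYY, -0.88), proglucagon (GCG, -0.75), somatostatin (SST, -0.63) and cholecystokinin (CCK, -0.72), all as log2 fold changes that did not pass the adjusted threshold.

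Summed over the enteroendocrine list, levels ran from 841 to 1775 TPM in HASI birds (median 1154) and from 1726 to 1869 TPM in LASI birds (median 1813), so that LASI birds were close together and HASI birds spread below and into their range. In whole tissue, fewer cells of a type and less RNA per cell cannot be told apart. MLN lost its call without HASI bird 2, 3 or 6 or LASI bird 2 (adjusted p up to 0.0634), and after rescaling and without LASI birds 4 and 6 together, with adjusted p-values of 0.00452 to 0.119 over 21 alternatives. NTS lost its call without HASI bird 1, 3 or 5 or LASI bird 2 (adjusted p up to 0.0632), and without LASI birds 4 and 6 together and with only injected birds fitted, with adjusted p-values of 0.00251 to 0.107 over 21 alternatives. PAX6 lost its call without any 1 of the 12 birds other than LASI 5 (adjusted p up to 0.148), and after rescaling, without the filter, with the filter at 1 TPM, with a pseudocount of 0.1, without LASI birds 4 and 6 together and with only injected birds fitted, with adjusted p-values of 0.01 to 0.266 over 21 alternatives. The PAX6 model overlaps that of ELP4.

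The following called genes, grouped after their values were seen, were lower in HASI. ENO2, an enolase of glycolysis, lay between 4.95 and 8.84 TPM in HASI birds (median 7.52), against 13.6 to 20.6 TPM in LASI birds (median 18), without overlap (log2 fold change -1.19, SE 0.17, adjusted p = 0.000453). LDHB, a subunit of lactate dehydrogenase, lay between 87.9 and 149 TPM in HASI birds (median 107), against 153 to 209 TPM in LASI birds (median 184), also without overlap (log2 fold change -0.72, SE 0.14, adjusted p = 0.011). The sum of LDHA and LDHB was 1228 to 2184 TPM in HASI and 843 to 2208 TPM in LASI, with overlap. OAT, the mitochondrial enzyme that links ornithine to proline and glutamate, was at 22.1, 36.8 and 43.8 TPM in HASI against 38.4, 62.1 and 72.3 TPM in LASI (log2 fold change -0.78, adjusted p = 0.023). ADH6, an alcohol dehydrogenase, was at 21.6, 63.8 and 87.4 TPM in HASI against 81.4, 132 and 153 TPM in LASI (log2 fold change -1.16, adjusted p = 0.0484). TPP1, a lysosomal peptidase, was at 73.3, 95.6 and 118 TPM in HASI against 107, 141 and 167 TPM in LASI (log2 fold change -0.59, adjusted p = 0.0355). In each of these 3 genes the highest HASI bird reached the LASI range. BNIP3, which acts in the removal of mitochondria, was at 36.6, 46.2 and 54.2 TPM in HASI against 54.3, 72 and 76.8 TPM in LASI (log2 fold change -0.58, adjusted p = 0.0364), without overlap. LRRC3B, a leucine-rich repeat gene, was at 2.09, 2.29 and 2.77 TPM in HASI against 2.73, 4.66 and 5.02 TPM in LASI (log2 fold change -0.65, adjusted p = 0.0484). ENO2 lost its call after rescaling, with adjusted p-values of 1.58e-06 to 0.0583 over 21 alternatives. LDHB lost its call after rescaling, with adjusted p-values of 0.0022 to 0.291 over 21 alternatives. OAT lost its call without HASI bird 1 or 5 or LASI bird 1, 2, 3, 5 or 6 (adjusted p up to 0.065) and with only injected birds fitted, with adjusted p-values of 0.00062 to 0.0948 over 21 alternatives. ADH6 lost its call without HASI bird 1, 2 or 5 or LASI bird 1, 2, 3, 5 or 6 (adjusted p up to 0.121), and with the replicate block, after rescaling, without the filter, with the W level as covariate, without LASI birds 4 and 6 together and with only injected birds fitted, with adjusted p-values of 0.0213 to 0.183 over 21 alternatives. TPP1 lost its call without HASI bird 1, 3 or 4 or LASI bird 1, 3, 4, 5 or 6 (adjusted p up to 0.119), and after rescaling, without LASI birds 4 and 6 together and with only injected birds fitted, with adjusted p-values of 0.00956 to 0.283 over 21 alternatives. BNIP3 lost its call without any 1 of the 12 birds other than HASI 4 and LASI 5 (adjusted p up to 0.103), and without LASI birds 4 and 6 together and with only injected birds fitted, with adjusted p-values of 0.000121 to 0.225 over 21 alternatives. LRRC3B lost its call without any 1 of the 12 birds other than LASI 1 (adjusted p up to 0.134), and after rescaling, without the filter, with a pseudocount of 0.1, with the W level as covariate, without LASI birds 4 and 6 together and with only injected birds fitted, with adjusted p-values of 0.00802 to 0.277 over 21 alternatives.

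MGMT and NTHL1, grouped after their values were seen, both encode DNA repair enzymes. MGMT, which removes alkyl groups from guanine, lay between 4.35 and 12.4 TPM in HASI birds (median 6.91), against 14 to 20.7 TPM in LASI birds (median 16.5), lower in every HASI bird (log2 fold change -1.13, SE 0.25, adjusted p = 0.0355). NTHL1, a glycosylase of base excision repair, lay between 15.2 and 21.6 TPM in HASI birds (median 19.3), against 8.18 to 15 TPM in LASI birds (median 9.73), higher in every HASI bird (log2 fold change 0.78, SE 0.15, adjusted p = 0.013). MGMT lost its call without any 1 of the 12 birds other than HASI 2, HASI 6 and LASI 1 (adjusted p up to 0.103) and without LASI birds 4 and 6 together, with adjusted p-values of 0.00317 to 0.237 over 21 alternatives. NTHL1 lost its call after rescaling and without LASI birds 4 and 6 together, with adjusted p-values of 0.000347 to 0.13 over 21 alternatives. NTHL1 and TP53I3 were the called members of the antioxidant and detoxification list (44 tested genes, 1 higher and 1 lower, median -0.10). The higher of them, NTHL1, is the repair enzyme above, so that call does not speak for antioxidant or detoxification function.

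Genes higher in HASI were fewer. ABHD3, which encodes a phospholipase, lay between 15.2 and 39.7 TPM in HASI birds (median 25.1), against 3.58 to 14.3 TPM in LASI birds (median 6.22), with the lowest HASI bird just above the highest LASI bird (log2 fold change 1.72, SE 0.28, adjusted p = 0.00183). VRK2, a serine/threonine kinase gene, lay between 34.8 and 44.7 TPM in HASI birds (median 41.7), against 9.86 to 30.7 TPM in LASI birds (median 15.4), without overlap (log2 fold change 1.21, SE 0.20, adjusted p = 0.00173). Both kept their call under each of the 21 alternatives, although the VRK2 model overlaps that of FANCL. A pair of histone genes 39218 bases apart on chromosome 1 was also higher, within a stretch of 8 tested genes. H2A-VII_6 was at 39.7, 46.8 and 56.1 TPM in HASI against 11.9, 19.6 and 27.5 TPM in LASI (log2 fold change 1.27, adjusted p = 0.00611). HIST1H103 was at 6.69, 13.4 and 20.7 TPM in HASI against 0.984, 3.34 and 4.15 TPM in LASI (log2 fold change 1.76, adjusted p = 0.0269). These were the 2 higher and 0 lower called members of 18 tested histone genes (list median -0.09; 3 lower at an unadjusted p below 0.05), and reads of such near-identical genes may have been assigned to the wrong copy. H2A-VII_6 lost its call after rescaling and without LASI birds 4 and 6 together, with adjusted p-values of 0.000194 to 0.0835 over 21 alternatives. HIST1H103 lost its call without HASI bird 1, 3 or 5 or LASI bird 2, 3 or 6 (adjusted p up to 0.085), and after rescaling and without LASI birds 4 and 6 together, with adjusted p-values of 4.21e-05 to 0.149 over 21 alternatives.

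PLCD4, a phospholipase C gene, was at 0.976, 2.69 and 4.34 TPM in HASI against 0.553, 0.781 and 1.06 TPM in LASI (log2 fold change 0.93, adjusted p = 0.0484), and its lower HASI birds reached the LASI range. GGACT, a gamma-glutamylamine cyclotransferase gene, was at 23.6, 32.9 and 40.4 TPM in HASI against 12.4, 20.7 and 22 TPM in LASI (log2 fold change 0.82, adjusted p = 0.0484), without overlap. ALG2, a mannosyltransferase of N-glycan assembly, was at 55.7, 70.5 and 76.9 TPM in HASI against 37.9, 47.6 and 56 TPM in LASI (log2 fold change 0.52, adjusted p = 0.0281). The groups overlapped narrowly in ALG2. CYB5D2 was at 43.8, 48.3 and 55.6 TPM in HASI against 31.8, 34.6 and 43.2 TPM in LASI (log2 fold change 0.46, adjusted p = 0.0379). TSTD3 was at 69.7, 80.2 and 82.4 TPM in HASI against 53.1, 55.3 and 65.1 TPM in LASI (log2 fold change 0.43, adjusted p = 0.0488). CELA1, an elastase gene, was low in every bird, at 0.468, 0.847 and 1.25 TPM in HASI against 0.0739, 0.192 and 0.262 TPM in LASI (log2 fold change 0.61, adjusted p = 0.0212), while CPA1 and CPB1, which define the acinar pancreas, were at or near 0 in both groups. In CYB5D2, TSTD3 and CELA1 the groups did not overlap. The CELA1 model overlaps that of BIN2. PLCD4 lost its call without any 1 of the 12 birds other than HASI 2 and HASI 6 (adjusted p up to 0.135), and after rescaling, without the filter, with the filter at 1 TPM, with the W level as covariate, without LASI birds 4 and 6 together and with only injected birds fitted, with adjusted p-values of 0.00802 to 0.196 over 21 alternatives. GGACT lost its call without any 1 of the 12 birds other than HASI 4 (adjusted p up to 0.147), and without the filter, without LASI birds 4 and 6 together and with only injected birds fitted, with adjusted p-values of 0.0139 to 0.225 over 21 alternatives. ALG2 lost its call without HASI bird 2, 4, 5 or 6 or LASI bird 1, 2, 3 or 5 (adjusted p up to 0.0849) and with only injected birds fitted, with adjusted p-values of 0.00249 to 0.0948 over 21 alternatives. CYB5D2 lost its call without any 1 of the 12 birds other than HASI 1 and LASI 6 (adjusted p up to 0.109), and with the replicate block, after rescaling, without LASI birds 4 and 6 together and with only injected birds fitted, with adjusted p-values of 0.0064 to 0.119 over 21 alternatives. TSTD3 lost its call without any 1 of the 12 birds (adjusted p up to 0.131), and after rescaling, without the filter, with the W level as covariate, without LASI birds 4 and 6 together and with only injected birds fitted, with adjusted p-values of 0.00132 to 0.461 over 21 alternatives. CELA1 lost its call without HASI bird 1, 3 or 5 or LASI bird 5 (adjusted p up to 0.0692) and without LASI birds 4 and 6 together, with adjusted p-values of 0.00958 to 0.0858 over 20 alternatives, the filter at 1 TPM having removed it.

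Genes without a symbol held some of the sharpest differences. ENSGALG00000052196 (chromosome 23, 6036756 to 6053909) lay between 85.6 and 109 TPM in HASI birds (median 100.3), against 8.09 to 11.6 TPM in LASI birds (median 10.1) (log2 fold change 3.20, SE 0.14, adjusted p = 2.37e-13). ENSGALG00000051027 (chromosome 2, 1038303 to 1039777) had the highest fold change of all called genes (log2 fold change 5.60, SE 1.10, adjusted p = 0.0138). It was on in all 6 HASI birds, at 274 to 441 TPM, and in LASI bird 5, at 252 TPM, while the other 5 LASI birds were at 0.382 to 5.16 TPM. The uninjected birds showed the same kind of split, with 277 to 537 TPM in all 6 HASN birds, 138 to 169 TPM in 4 LASN birds and 0.974 and 2.07 TPM in LASN birds 4 and 5. Its level thus varied between birds within LAS as well as between lines. The call ended without LASI birds 4 and 6 (adjusted p = 0.114, range over 21 alternatives 0.000283 to 0.114). ENSGALG00000036831 (chromosome 32) was at 1.8, 5.09 and 21 TPM in HASI against 12.4, 33.1 and 64.8 TPM in LASI (lowest, median and highest; log2 fold change -2.29, adjusted p = 0.0215), with overlap. ENSGALG00000036831 lost its call without HASI bird 1, 3 or 5 or LASI bird 3 or 5 (adjusted p up to 0.0723) and with only injected birds fitted, with adjusted p-values of 0.00408 to 0.0723 over 21 alternatives.

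No listed lymphocyte or antibody gene was called in the injected birds. What the 26 called genes without a symbol encode is not known here. Of 12 tested plasma cell and secreted antibody genes, 17 B cell, 25 T cell and 11 cytotoxic lymphocyte genes 0 were called, and at an unadjusted p below 0.05 there were 0, 1, 2 and 1 lower and 0 higher. The list medians were -0.02, -0.04, -0.11 and -0.11. JCHAIN, which joins secreted IgA and IgM into polymers, lay between 525 and 1251 TPM in HASI birds (median 800.3), against 432 to 1695 TPM in LASI birds (median 1219.8) (adjusted p = 0.926). PIGR, which carries them across the epithelium, lay between 908 and 2785 TPM in HASI birds (median 1711), against 1018 to 2364 TPM in LASI birds (median 1482) (adjusted p = 1.0). In both the groups overlapped widely. The plasma cell list summed to 1848 to 4542 TPM in HASI and 2128 to 4049.6 TPM in LASI. BCL6, a regulator of germinal centre B cells, was at 17.6, 19.2 and 23.6 TPM in HASI against 20.4, 28.1 and 36.3 TPM in LASI. TNFRSF13B, a receptor of B cell survival factors, was at 1.02, 1.63 and 3.22 TPM in HASI against 0.804, 1.08 and 1.69 TPM in LASI. TCF7, a T cell transcription factor, was at 0.987, 1.84 and 2.47 TPM in HASI against 1.93, 3.14 and 5.75 TPM in LASI. None of these 3 passed the adjusted threshold, although TCF7 did with the span slope as covariate (adjusted p = 0.0213). A p above the threshold does not show that the lines were alike in these genes.

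The listed genes of innate and inflammatory signalling gave 1 call. TIRAP was the called member of 19 tested Toll-like receptor and adaptor genes (0 higher, 1 lower), and of 29 chemokine and receptor, 20 interleukin and cytokine, 24 interferon-stimulated, 27 macrophage, dendritic cell and heterophil, and 22 immediate early genes 0 were called. Their medians were -0.11, -0.03, -0.03, -0.18 and 0.07. Without LASI birds 4 and 6 the interferon-stimulated median was 0.26, where that of all tested genes was -0.004. CCL17, a T cell attracting chemokine, was at 1.84, 4.36 and 7.62 TPM in HASI against 6.2, 8.98 and 37.6 TPM in LASI, the highest value being that of LASI bird 4. LYG2, a lysozyme of the goose type, was at 17.3, 43.9 and 94.6 TPM in HASI against 2.0, 4.81 and 76.3 TPM in LASI and varied widely within LASI (adjusted p = 0.246, and 0.029 without LASI bird 1). IFITM3, an antiviral membrane gene, was at 126, 197 and 289 TPM in HASI against 154, 239 and 1042 TPM in LASI (adjusted p = 0.784). In these 3 genes a single LASI bird was far above the other LASI birds' median. TGFB1, a regulatory cytokine, was at 18.6, 23.3 and 36.7 TPM in HASI against 25.6, 34.4 and 41.1 TPM in LASI (adjusted p = 0.487). The immediate early gene FOS was at 41.6, 48.4 and 70.4 TPM in HASI against 25.1, 28.3 and 49.9 TPM in LASI (adjusted p = 0.54).

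Epithelial function lists also held no called gene beyond CLDN1 and the hormone genes. None of 14 sugar, 21 peptide and amino acid, 26 lipid and lipoprotein, 18 brush border and adhesion, 10 goblet cell, 34 crypt and Wnt and 33 cholesterol and fatty acid synthesis genes was called. At an unadjusted p below 0.05, 3 of the 10 goblet cell genes were higher and 0 lower (background 1.38% of all tested genes higher), with a median of 0.24. SPDEF, a transcription factor of goblet cells, was at 25.1, 60.3 and 84.3 TPM in HASI against 22.8, 27.6 and 44 TPM in LASI (adjusted p = 0.29). GALNT12, which starts mucin O-glycans, was at 23.4, 60.1 and 119 TPM in HASI against 5.77, 20.5 and 69.4 TPM in LASI (adjusted p = 0.505, and 0.00541 with the span slope). WIF1, a secreted Wnt inhibitor, was at 6.4, 7.88 and 11.5 TPM in HASI against 2.08, 3.82 and 5.07 TPM in LASI (log2 fold change 1.02, adjusted p = 0.113). WIF1 separated all HASI from all LASI birds and missed the threshold, but passed it after rescaling (adjusted p = 0.0277), with the span slope (0.0238) and with only injected birds (0.0386), out of 21 alternatives that ran up to 0.566. The fructose transporter gene SLC2A5 was at 84.2, 122 and 214 TPM in HASI against 32.2, 82 and 197 TPM in LASI. The glucose transporter gene SLC2A2 was at 46.4, 116 and 308 TPM in HASI against 5.73, 49.8 and 220.2 TPM in LASI. Both varied several-fold within each group.

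All 13 mitochondrially encoded genes had positive log2 fold changes (median 0.38, 0 called, 6 at an unadjusted p below 0.05, where 1.38% of all tested genes were higher), led by the complex I gene ND4L at 3408, 3861 and 5945 TPM in HASI against 1202, 2379 and 3894 TPM in LASI (log2 fold change 0.92, adjusted p = 0.0903). ND4L passed the threshold with the block (adjusted p = 0.0307), with the span slope (0.0353) and without LASI bird 1 (0.0289). The median of the list was 0.47 after rescaling and 0.22 without LASI birds 4 and 6. The 13 genes together make up the mitochondrial share of each library, so they may not vary independently. Tested as 1 value a bird, that share did not pass 0.05 (exact two-sided permutation test, p = 0.134). The nuclear genes of oxidative phosphorylation had a median of -0.15 (60 tested, 0 called) and the ribosomal proteins of -0.22 (69 tested, 0 called; 7 lower at an unadjusted p below 0.05, against 6.10% of all tested genes). Smooth muscle, fibroblast and matrix genes had the lowest median of the 38 lists with at least 5 tested members, -0.44, with 0 of 39 called and 5 lower at an unadjusted p below 0.05 (again against 6.10%). Their sum ran from 5409 to 9068 TPM in HASI and from 5207 to 20429 TPM in LASI. POSTN, a matrix protein gene, was at 3.25, 3.78 and 7.02 TPM in HASI against 5.03, 9.0 and 19.5 TPM in LASI. VIM, the mesenchymal filament gene, was at 41.7, 64.9 and 78.8 TPM in HASI against 79.9, 85.3 and 126 TPM in LASI. The part of muscle and matrix content in the enteroendocrine and other differences was not tested. Of the 39 lists, 31 had a negative median and 11 held a called gene. Over all 13279 genes tested, 8186 had a negative log2 fold change. The median of all genes tested moved from -0.06 to 0.01 after rescaling.

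**Figure D4:**
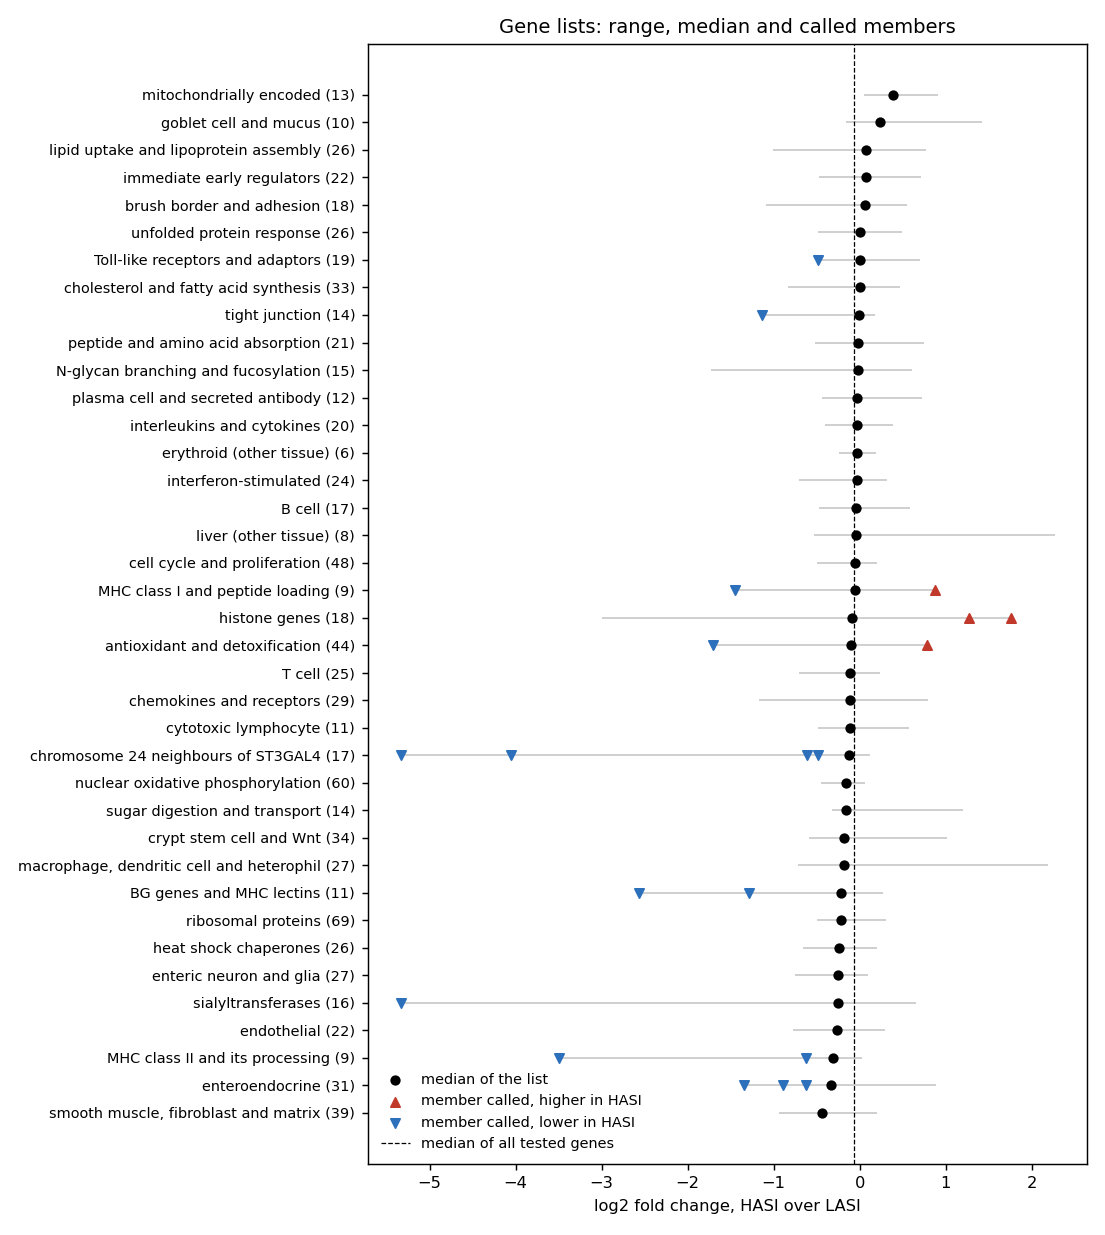
Log2 fold change (HASI over LASI, x axis) for gene lists with at least 5 tested members (y axis, number tested in brackets), ordered by median. Grey lines give the range of members, black points the median, and triangles the called members; most medians lie near the dashed line of all tested genes at -0.06, from -0.44 for muscle and matrix to 0.38 for mitochondrially encoded genes.

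By position, 30 of the 72 called genes lay within 1000000 bases of another called gene, in 7 stretches. Besides the chromosome 16 stretch, the chromosome 24 genes and the histone pair, these were MGMT and BNIP3 on chromosome 6, PAX6 and 1 gene without a symbol on chromosome 5, 4 genes including ANKRD33 and CELA1 on chromosome 33, and 3 genes around ENSGALG00000051027 on chromosome 2. In the chromosome 24 stretch all 4 called genes were lower in HASI, and in the chromosome 16 stretch, which holds the MHC genes, 11 of 13 were. In the chromosome 33 stretch, with 48 tested genes, 3 called genes were lower and 1 was higher. The share of all tested genes that lay this close to a called gene was not counted, so the 30 do not show clustering. Gene models of 24 called genes overlapped another model, a share that was not counted over all genes. Whether the authors' counting used strand is not given in the sources used here, so reads of overlapping genes may be shared.

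The line difference in injected birds was then set beside that in uninjected birds, each fitted alone so that neither libraries nor spread were shared. HASN birds 1 to 3 had 13722 to 13916 genes above 0 TPM and slopes of expression on gene span of -0.28 to -0.22. HASN birds 4 to 6 had 14468 to 14653 such genes and slopes of -0.02 to 0.01. LASN birds ranged from 13979 to 14801 genes and from -0.13 to 0.02. The part of this spread in the uninjected comparison was not tested. Injected birds alone gave 68 called genes (16 higher, 52 lower; 0.512%), and HASN against LASN gave 67 (20 higher, 47 lower; 0.505%). Called in both with the same direction were 29 genes, which is 42.6% of the 68 and 43.3% of the 67, and 0 were called in opposite directions. Of the 68 genes called in injected birds alone, 66 had the same sign in uninjected birds alone. Of the 72 genes called in injected birds in the fit of all libraries, 71 had the same sign there, TPP1 being the exception. Of these 72, 59 had an unadjusted p below 0.05 in uninjected birds alone (background 8.12%). In 36 the uninjected birds did not overlap between lines (background 1.21%). The fit of all libraries drew each gene's spread from the uninjected birds as well, so the counts for the 72 are not independent of those birds. In the separate fits the replicate block gave 31 calls in injected and 28 in uninjected birds. The span slope as covariate gave 212 and 276 calls, and the shared genes were not counted in either case. Left-out birds moved the counts too: the injected birds alone gave 45 without HASI bird 1, 42 without HASI bird 3 and 44 without LASI bird 2. The uninjected birds gave 43 without LASN bird 1 and 40 without LASN bird 2.

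In uninjected birds BLB1 was at 182 to 317 TPM in HASN and 1383 to 1972 TPM in LASN (log2 fold change -2.71, adjusted p = 3.49e-07). BG8 was at 59.3 to 108 TPM in HASN and 424 to 575 TPM in LASN (log2 fold change -2.70, adjusted p = 1.79e-06). TP53I3 was at 2.63 to 6.78 TPM in HASN and 17.3 to 27.2 TPM in LASN (log2 fold change -2.17, adjusted p = 0.000195). The uninjected lines did not overlap in any of the 3. For 13 of the 72 genes the unadjusted p in uninjected birds was 0.05 or more, among them CLDN1, LDHB, EMID1, ADH6, TPP1 and PAX6. CLDN1 was at 2.76 to 7.54 TPM in HASN and 3.68 to 6.27 TPM in LASN (log2 fold change -0.23, adjusted p = 0.613), with an interaction of -0.90 (SE 0.28, adjusted p = 0.75). All 6 HASI birds lay below 5 of the 6 HASN birds, while LASI and LASN birds overlapped. LDHB was at 95.7 to 149 TPM in HASN and 108 to 145 TPM in LASN (log2 fold change -0.11, adjusted p = 0.699), with an interaction of -0.61 (SE 0.20, adjusted p = 0.75). TPP1 was at 124 to 181 TPM in HASN and 118 to 147 TPM in LASN (log2 fold change 0.11, adjusted p = 0.647), with an interaction of -0.69 (SE 0.18, adjusted p = 0.75). These differences between conditions did not pass the interaction test, so no dependence of these line differences on injection was shown.

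The interaction of line and injection, tested over all 13279 genes with limma, gave 0 called genes, with 606 at an unadjusted p below 0.05 (4.56%), 15 of them among the 72. The 5 with the smallest p were RFLNA, KIRREL3, ENSGALG00000053834, CEBPD and TMEM158 (adjusted p at least 0.736). For KIRREL3 the interaction was 1.55 (SE 0.34), with levels of 0.18 to 0.437 TPM in HASI, 8.44 to 39.08 TPM in LASI, 0.296 to 0.924 TPM in HASN and 60.3 to 97.3 TPM in LASN. Every HAS bird was thus below 1 TPM, where the log2(TPM + 1) scale compresses differences, so the size of this interaction depends on the scale. CEBPD, a transcription factor of inflammation, was at 23 to 43.4 TPM in HASI, 25.6 to 81.7 TPM in LASI, 56.2 to 90.3 TPM in HASN and 32.7 to 52.6 TPM in LASN (interaction -1.24). Without LASI bird 6, RFLNA, KIRREL3 and ENSGALG00000053834 passed the threshold (adjusted p = 0.0409 for each); over the alternatives the count of called genes ran from 0 to 3. RFLNA and ENSGALG00000053834 were near 0 in most injected birds, at 0, 0.0758 and 0.33 TPM in HASI against 0, 0.355 and 2.4 TPM in LASI for RFLNA.

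**Figure D5:**
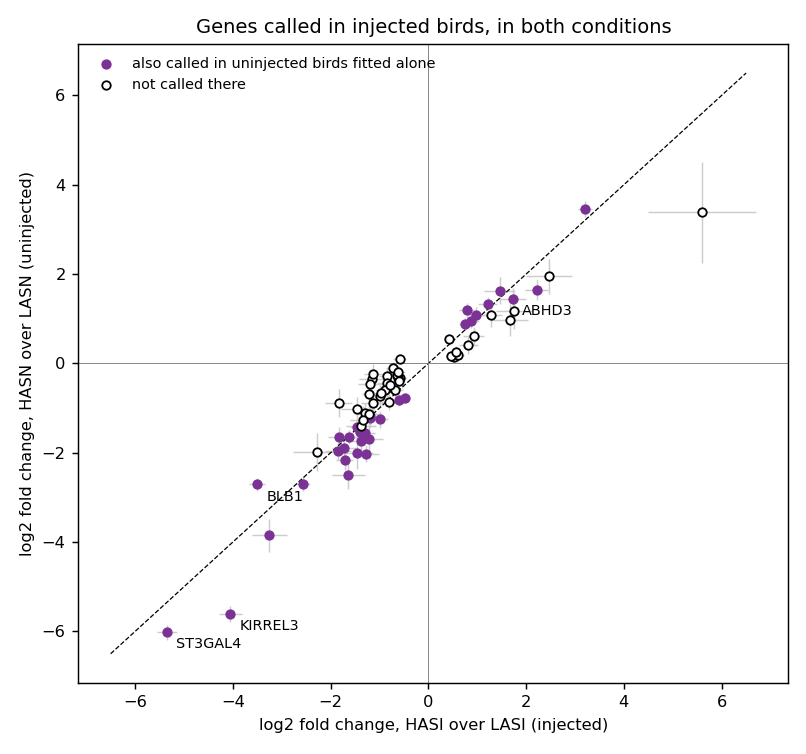
Log2 fold change of the 72 genes called in injected birds (HASI over LASI, fit of all libraries, x axis) and in uninjected birds fitted alone (HASN over LASN, y axis), with bars of 1 SE and the line of equal values dashed. Filled points are the 32 genes also called in uninjected birds, and 71 of 72 points have the same sign on both axes. The share of same signs over all tested genes was not counted. The uninjected birds also entered each gene's spread in the fit of all libraries.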

How the data were processed

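RNA from the jejunum of 24 chickens was sequenced, 1 library a bird, 6 birds each in HASI, LASI, HASN and LASN. The deposited table holds TPM values for 15618 genes, 12132 with a symbol; that they are TPM was judged from their near-equal column sums. The build was galGal6, per the submitters' processing notes. Aligner, quantification tool and gene annotation are not given in the sources used here, and with TPM alone the depth is unknown and no counting interval is given. TPM is relative, so a large change in a few abundant genes shifts all others.

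Groups were taken from the labels. A gene was tested if 6 or more libraries had 0.5 TPM or more (13279 genes), as log2(TPM + 1), with limma 3.58.1 in R 4.3.3 (1 mean per group, all 24 libraries, intensity trend, robust moderation, 20 residual degrees of freedom). Fold changes on this scale understate the change of low genes. Contrasts were HASI minus LASI and the interaction of line and injection; injected and uninjected birds were also fitted alone, with 10 residual degrees of freedom each. Tests were two-sided, with Benjamini-Hochberg adjustment over all genes tested, and genes were called at an adjusted p below 0.05. Library measures were compared by exact permutation tests (924 arrangements). The procedure was tested on simulated data. Named were the called genes with a symbol, the 2 highest and 2 lowest called genes without one, the 2 members of each list with the smallest p, 6 MHC and antibody genes, and the leading interaction genes; some of them are not reported here, and other list members named were chosen after their values were seen. ENSGALG00000046794 was also named after its values were seen. The groups, members, gene lists and tests were chosen with earlier results of these data known. Of the identifiers without a symbol, 0 of 3486 were matched in the RefSeq gene table, so they are given as in the file. Alternatives were median-ratio rescaling, other filters and pseudocount, the replicate number as a block, the chromosome W level or the slope of expression on gene span as covariate, only injected birds, each injected bird left out, and LASI birds 4 and 6 left out together.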

Additional observations from a re-analysis of the deposited data

Results flagged for a closer look

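In 17 of 244 groups examined (118 named genes and 4 library measures, HASI and LASI apart), 1 bird's gap to its nearest neighbour on the log2(TPM + 1) scale exceeded Dixon's 95% critical value for 6 birds; chance gives about 1 in 20 such groups. LASI bird 4 stood apart in 8 genes: it was low in TP53I3 at 13.2 TPM (the other 5 at 19.7 to 23.1), OAT at 38.4 TPM (the other 5 at 61.5 to 72.3), FAM118B at 17.5 TPM (the other 5 at 26.4 to 31.3) and TIRAP at 27 TPM (the other 5 at 34.5 to 37), and high in BLEC2 at 5.29 TPM (the other 5 at 1.53 to 2.52), CCL17 at 37.6 TPM (the other 5 at 6.2 to 10.5), IFITM5 at 43.4 TPM (the other 5 at 11.1 to 18.1) and TMEM158 at 3.51 TPM (the other 5 at 1.28 to 1.91). LASI bird 6 was low in CXCL12 at 6.45 TPM (the other 5 at 10.9 to 13.9) and high in RFLNA at 2.4 TPM (the other 5 at 0 to 0.532) and ENSGALG00000053834 at 0.652 TPM (the other 5 at 0 to 0.142). LASI bird 5 was high in UQCRC2 at 328 TPM (the other 5 at 266 to 287), FGG at 31.2 TPM (the other 5 at 1.52 to 5.1) and ENSGALG00000051027 at 252 TPM (the other 5 at 0.382 to 5.16). In HASI, bird 1 was low in CLDN1 at 1.15 TPM (the other 5 at 2.31 to 3.07), bird 4 was high in ENSGALG00000053834 at 0.0528 TPM (the other 5 all at 0), and bird 6 was high in SLC43A2 at 122 TPM (the other 5 at 67 to 78.4). Of the 8 genes with LASI bird 4 apart, TP53I3, OAT, BLEC2, FAM118B and TIRAP were called, and each was still called without it; the cause of its distance was not tested.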

How the results depend on the processing

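ENSGALG00000046794 aside, no named gene called in HASI against LASI reversed its direction under any of the 21 alternatives. Of the 72 calls, 30 were made under all of them. Of the 46 with a symbol 17 were, and 29 were lost somewhere, 19 of them after rescaling and 22 without LASI birds 4 and 6. In place of 72 calls there were 64 to 83 with another filter, pseudocount, scaling, the W level or the replicate block. There were 288 (64 higher, 224 lower) with the span slope as covariate, 40 without LASI birds 4 and 6, and 45 to 68 with each bird left out. Of the 72, 49 were among the calls after rescaling and 51 among those with only injected birds fitted. The interaction gave 1 called gene with no filter and 0 to 3 with each bird left out. Injected birds fitted alone gave 212 calls with the slope, 31 with the replicate block and 42 to 72 with each bird left out; uninjected birds gave 276, 28 and 40 to 70. The cause of these shifts was not tested. The labels do not say whether same-numbered HASI and LASI birds share a source. The deviations of such pairs from the group means correlated at -0.508 to 0.685, and 2 of 6 pairs passed 0.1. Among HASI birds, 2 of 6 correlated best with their own number. In the fit of all libraries the block gave 83 calls and ended those of ADH6, FAM204A and CYB5D2 among the genes named. With a pseudocount of 0.1 the log2 fold change was -3.61 for ANKRD33, -2.40 for BLEC2, -1.49 for CEP57L1, 1.66 for CELA1 and 1.46 for PLCD4. The median of all genes moved to 0.01 after rescaling. Adjusted over the 4 library measures, no exact test of them passed under any omission of birds; unadjusted, the number of genes above 0 TPM did without LASI bird 5 (difference -92.1, p = 0.0303, adjusted 0.121). The unknown depth limits what can be said of genes below about 1 TPM.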

Other observations

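The histone gene HIST1H2B7, chosen after its values were seen, was listed at 0 TPM in all 6 HASI birds and lay between 0 and 52.4 TPM in LASI birds (median 13.7; unadjusted p = 0.00251, adjusted p = 0.189, limma). In uninjected birds it lay between 0 and 21.9 TPM in HASN and between 0 and 6.76 TPM in LASN. FGG, a fibrinogen chain gene that is mainly a liver gene, had 7.55, 33.9 and 56 TPM in HASI against 1.52, 3.75 and 31.2 TPM in LASI (lowest, median and highest bird; log2 fold change 2.27, adjusted p = 0.0591, and 0.00251 without LASI bird 5, 0.0269 without HASI bird 3, 0.0147 with the block and 0.0333 with the span slope), while FGB had a log2 fold change of -0.13 and ALB stayed near 1 TPM or below in both groups.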
